A study of Mus musculus with 2 samples.

Results

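The 10 genes described here carry the feedback and the transcriptional output of canonical Wnt signalling: Axin2, Lef1, Tcf7, Tcf7l1, Nkd1, Dkk1, Notum, Rnf43, Znrf3 and Bambi. They were chosen by name, and all 10 were found among the 32285 genes of the count matrices. Transcripts were counted in single cells of mouse gastruloids, aggregates of embryonic stem cells that begin to form a body axis in culture. Both libraries came from R1 embryonic stem cells, 300 per aggregate, grown in serum-free N2B27 and given 3 µM CHIR from day 2 for 12 h before pooling of the aggregates at day 2.5. One library is labelled wild type (its treatment field reads "Control") and the other a double mutant of Sp5 and Sp8 (its treatment field reads "Mutant"), and the labels do not say how the mutant line was made or whether it is 1 clone. Since both libraries received CHIR, the change that CHIR itself causes was not measured. Each genotype had 1 library, so no difference below has a replicate check, and no p-value is given.

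In canonical Wnt signalling, a complex built around Axin and APC holds β-catenin for phosphorylation by GSK3 and destruction. Wnt ligands, or a GSK3 inhibitor such as CHIR, stop this, and β-catenin enters the nucleus and binds TCF/LEF factors on target genes. Many of those targets act back on the pathway: Axin2 inside the cell, Nkd1 on Dishevelled, Znrf3 and Rnf43 on the receptors, and Notum and Dkk1 outside the cell. In the mouse embryo the same pathway is required to form the primitive streak, whose cells express T and Eomes. Sp5 and Sp8 are zinc finger transcription factors, and Sp5 is itself a direct Wnt target.

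Both targeted genes had higher counts in the library labelled double mutant. Levels are given as UMIs per 1000000 UMIs (CPM), first for the library labelled wild type and then for the library labelled double mutant unless stated. Sp5 was at 109.1 and 478.7 CPM, a log2 ratio of 2.13 (95% interval 2.10 to 2.16). Sp8 was at 20.8 and 40.1 CPM, a log2 ratio of 0.95 (0.87 to 1.03). These are counts toward the 3' end, and whether the mutant alleles still give such transcripts is not stated, so neither gene checks the genotype and the libraries are named by their labels throughout. Intervals here and below cover counting error only, not the spread between cultures.

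Cells were barcodes with at least 2500 UMIs, at least 1000 genes and at most 10% mitochondrial UMIs. The library labelled wild type held 8707 such cells with 97157331 UMIs and the library labelled double mutant 10587 with 97644169 UMIs, with medians of 10571 and 8637 UMIs per cell. Marker lists were summed to check the label of the cells. Primed epiblast markers summed to 1652 and 1758 CPM, streak markers to 306.8 and 505.0 CPM (7 of 9 tested were higher and 1 lower in the second library), and neural markers to 37.6 and 20.7 CPM (4 of 5 tested lower). Naive markers stood at 66.9 and 53.1 CPM, extraembryonic endoderm markers at 13.2 and 12.3 CPM and caudal markers at 30.6 and 25.4 CPM, and Msgn1, a presomitic mesoderm gene, was at 0 in both. The part of these differing makeups in the values below was not tested, except within the cell classes given further on.

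Over all cells, most Wnt feedback and effector genes stood at nearly the same level in both libraries, while Notum and Bambi were lower in the library labelled double mutant. A gene is called higher or lower where its log2 ratio, library labelled double mutant over library labelled wild type, is at least 0.25 in size with an interval on 1 side of 0, among genes with a mean of at least 1 CPM. By that rule 0 of the 10 genes were called higher, where 5.02% of 12406 tested genes were, and 2 were called lower, where 7.86% were. The median log2 ratio was -0.05 for the 10 genes and -0.03 for all genes tested. A count of 2 in 10 is small, and the 2 calls describe Notum and Bambi rather than the set.

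The nuclear effectors differed least. Lef1, an activator that binds β-catenin, had 71.5 and 73.4 CPM, a log2 ratio of 0.04 (-0.01 to 0.09). Tcf7, which like Lef1 is both an effector and a target, had 61.2 and 62.9 CPM (0.04, -0.01 to 0.09). Tcf7l1, mainly a repressor of Wnt targets in pluripotent cells, had 126.5 and 130.4 CPM (0.04, 0.01 to 0.08). For these 3 genes the intervals hold any difference between the libraries to less than 0.1 on the log2 scale, as far as counting error goes.

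The intracellular feedback genes moved apart by small amounts, in opposite directions. Axin2, the scaffold that rebuilds the destruction complex and a common readout of the pathway, was counted at 83.5 CPM (81.7 to 85.3) and 76.2 CPM (74.4 to 77.9), a log2 ratio of -0.13 (-0.18 to -0.09). Nkd1, which restrains Dishevelled, was at 60.4 and 66.0 CPM, a log2 ratio of 0.13 (0.08 to 0.18). Both intervals lie on 1 side of 0, but both sizes are under the 0.25 that a call needs.

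Among the secreted inhibitors, Notum was lower and Dkk1 fell just short of a call in the other direction. Notum, an enzyme that removes the lipid that Wnt ligands need for activity, was at 7.77 CPM (7.23 to 8.35, from 755 UMIs) and 5.29 CPM (4.85 to 5.77, from 517 UMIs), a log2 ratio of -0.55 (-0.72 to -0.39). Dkk1, which binds the LRP5 and LRP6 co-receptors, was at 6.79 CPM (6.28 to 7.33) and 8.01 CPM (7.46 to 8.59), a log2 ratio of 0.24 (0.09 to 0.39).

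Of the membrane proteins, Bambi, a decoy receptor for TGF-β and BMP ligands that is also a Wnt target, was at 22.3 CPM (21.4 to 23.3) and 16.7 CPM (15.9 to 17.6), a log2 ratio of -0.42 (-0.51 to -0.32). The level intervals of Notum and of Bambi in the 2 libraries did not overlap. The same held for Axin2, Nkd1, Dkk1 and Znrf3, which were not called. How many of all genes do so was not counted, so the lack of overlap is not read as a result about any of these genes. Znrf3, a ubiquitin ligase that removes Wnt receptors from the surface, was at 17.5 and 15.4 CPM (-0.18, -0.28 to -0.08). Its paralog Rnf43 gave 116 and 93 UMIs in all, a log2 ratio of -0.33 with an interval of -0.74 to 0.08, so a difference in Rnf43 was not detectable at this depth.

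**Figure D1:**
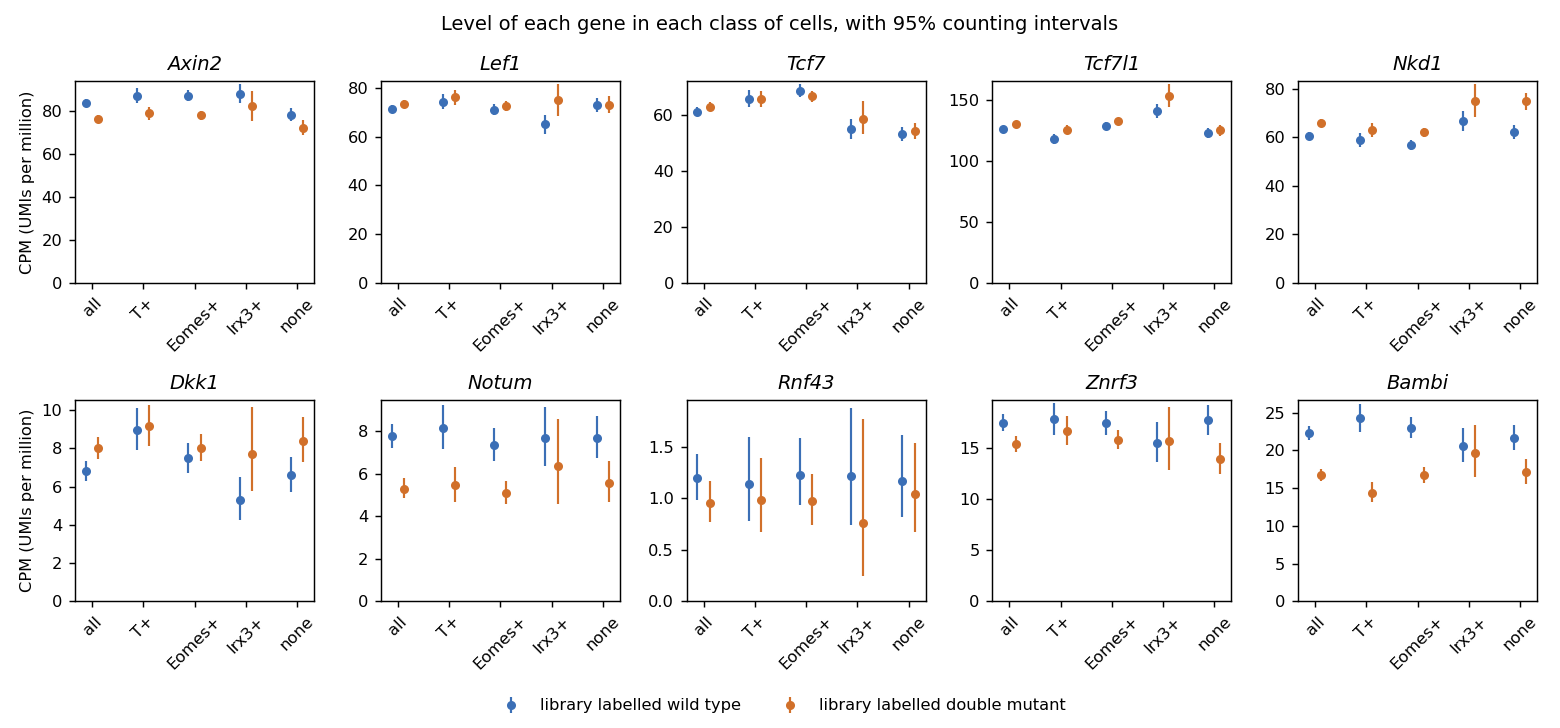
Levels of the 10 genes in CPM in both libraries, over all cells and in each cell class, with exact Poisson 95% intervals as bars. Notum and Bambi lie lower in the library labelled double mutant over all cells, in T-positive and in Eomes-positive cells, and the intervals of Tcf7 overlap or nearly do so throughout.

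The libraries were next compared within cells that held at least 1 UMI of T, of Eomes or of Irx3, the last a gene of early neural tissue. The classes overlap: 1465 and 2452 cells held both T and Eomes. T-positive cells were 26.0% of the library labelled wild type (2267 cells) and 29.3% of the library labelled double mutant (3100 cells), Eomes-positive cells 43.4% (3780) and 61.8% (6547), and Irx3-positive cells 15.5% (1346) and 6.21% (657). With every cell thinned to 2500 UMIs the shares were 7.83% and 10.8% for T, 16.7% and 32.2% for Eomes, and 4.64% and 2.09% for Irx3, in the same order between libraries. No cell type that lacks these genes was at hand for a background share. Barcodes of 10 to 100 UMIs, too small to be whole cells, had 25.3 and 26.8 CPM of T against 38.8 and 50.7 CPM in the kept cells, and 27.0 and 10.6 CPM of Irx3 against 19.8 and 8.17 CPM, and how many positive cells hold a free UMI was not tested.

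The T and Eomes classes carried more of the other streak genes, and the Irx3 class more of the other neural genes than those classes, though little more than cells with none of the 3 genes. Streak markers other than T and Eomes summed to 274.4 and 379.9 CPM in T-positive cells, 251.2 and 324.9 CPM in Eomes-positive cells, 101.6 and 141.2 CPM in Irx3-positive cells, and 102.9 and 146.4 CPM in cells with none of the 3 genes. Neural markers other than Irx3 summed to 27.8 and 25.1 CPM in Irx3-positive cells, against 9.45 and 7.86 CPM in T-positive cells, 9.36 and 8.42 CPM in Eomes-positive cells and 26.3 and 21.4 CPM in cells with none. All classes are named by their gene and not by a tissue.

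In T-positive cells the largest difference was in Bambi. It was at 24.2 CPM (22.5 to 26.1, from 703 UMIs) and 14.4 CPM (13.1 to 15.8, from 467 UMIs), a log2 ratio of -0.75 (-0.92 to -0.58). Notum was at 8.14 and 5.45 CPM, a log2 ratio of -0.58 (-0.87 to -0.29). Again these 2 of 10 genes were called lower, where 7.68% of 12312 tested genes were, and 0 were called higher, where 5% were. Axin2 had 87.0 and 78.8 CPM (-0.14, -0.22 to -0.06) and Tcf7l1 118.1 and 125.7 CPM (0.09, 0.02 to 0.16). Lef1 at 74.5 and 76.3 CPM, Tcf7 at 65.8 and 65.7 CPM and Dkk1 at 8.97 and 9.15 CPM differed by 0.03 or less on the log2 scale. For Dkk1 that interval was wide, -0.22 to 0.27, and covers the difference seen over all cells.

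Eomes-positive cells gave the same 2 calls. Notum was at 7.33 and 5.09 CPM (-0.53, -0.75 to -0.31) and Bambi at 23.0 and 16.7 CPM (-0.46, -0.58 to -0.34), where 6.23% of genes were called lower and 4.19% higher. Axin2 had 87.0 and 78.0 CPM (-0.16, -0.22 to -0.10), Nkd1 56.8 and 62.0 CPM (0.13, 0.06 to 0.20), and Znrf3 17.4 and 15.8 CPM (-0.14, -0.27 to -0.01). Lef1 and Tcf7 were again close, at 71.2 and 72.8 CPM and at 68.7 and 66.7 CPM.

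In Irx3-positive cells the intervals of Bambi and Notum spanned 0. Bambi was at 20.7 and 19.7 CPM, a log2 ratio of -0.07 (-0.37 to 0.23), and that interval does not reach the value of -0.75 seen in T-positive cells; the difference between the classes itself was not tested. Dkk1 was the 1 gene of 9 called, at 5.29 CPM (4.23 to 6.52, from 87 UMIs) and 7.72 CPM (5.75 to 10.1, from 51 UMIs), a log2 ratio of 0.55 (0.02 to 1.06), where 4.41% of genes were called higher. That call was lost under 4 alternatives, each with an interval that spans 0: at 0.91 (-0.94 to 2.52) with 2 or more Irx3 UMIs, 0.70 (-0.26 to 1.60) with no UMI of T or Eomes, 0.29 (-0.32 to 0.88) with likely doublets removed, and 0.28 (-0.87 to 1.36) where Irx3 was read after thinning to 2500 UMIs. In the last of these Lef1 was called higher in its place, at 0.49 (0.18 to 0.79). Called lower were 0 of 9, where 4.84% of genes were. Lef1 was at 65.1 and 75.05 CPM (0.20, 0.05 to 0.36), Nkd1 at 66.6 and 74.9 CPM (0.17, 0.01 to 0.32) and Tcf7l1 at 140.6 and 153.3 CPM (0.12, 0.02 to 0.23). Notum, at 7.66 and 6.35 CPM, had an interval of -0.81 to 0.25 around -0.27, too wide to place it. Rnf43, with 20 and 5 UMIs, was under the minimum level.

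In cells with none of the 3 genes, 2 of 10 were called higher, where 4.7% of genes were, and 3 lower, where 7.31% were. Nkd1 was at 62.1 and 74.7 CPM (0.27, 0.18 to 0.36) and Dkk1 at 6.60 and 8.41 CPM (0.35, 0.06 to 0.64). The 3 lower genes were Notum at 7.67 and 5.58 CPM (-0.46, -0.78 to -0.15), Znrf3 at 17.7 and 13.9 CPM (-0.35, -0.54 to -0.15) and Bambi at 21.7 and 17.1 CPM (-0.34, -0.52 to -0.16). Sp5 differed by a like amount in every class, at log2 ratios of 2.06 in T-positive, 2.04 in Eomes-positive, 2.36 in Irx3-positive cells and 2.16 in cells with none.

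Within a library, where cells share their preparation, Tcf7 set the streak classes apart. Tcf7 was at 65.8 CPM in T-positive and 68.7 CPM in Eomes-positive cells of the library labelled wild type against 53.0 CPM in cells with none, log2 ratios of 0.31 (0.22 to 0.41) and 0.37 (0.29 to 0.46). The library labelled double mutant gave 65.7 and 66.7 CPM against 54.2 CPM, log2 ratios of 0.28 (0.18 to 0.38) and 0.30 (0.21 to 0.39). The 2 libraries thus gave Tcf7 the same direction in both classes.

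Few other genes were called between a class and the cells with none. In T-positive cells of the library labelled wild type, Dkk1 was the other of 2 genes called higher (0.44, 0.17 to 0.71, where 4.77% of genes were called), and 0 were called lower (5.81%). In those of the library labelled double mutant the other was Znrf3 (0.26, 0.06 to 0.46, where 5.3% were called), again with 0 lower (6.18%). Bambi stood 0.16 (0.01 to 0.31) above cells with none in T-positive cells of the first library and -0.25 (-0.44 to -0.05) from them in the second. Axin2 stood above cells with none in T-, Eomes- and Irx3-positive cells, by 0.15, 0.15 and 0.17 in the first library and 0.13, 0.11 and 0.19 in the second. Its intervals all lay above 0, under the size of a call. Cells with none were shallower, with medians of 9366 and 7649 UMIs against 11773 and 9771 in T-positive cells. In Eomes-positive cells Tcf7 was the 1 gene called higher in each library (4.09% and 4.43% of genes). Called lower there was Nkd1 in the library labelled double mutant (-0.27, -0.35 to -0.19, where 5.73% were), and 0 genes in the other (5.9%). Tcf7l1 was called higher in Irx3-positive cells of the library labelled double mutant (0.29, 0.19 to 0.40, where 5.87% of genes were called higher and 2.79% lower), and stood at 0.20 (0.12 to 0.27) in the other library, where 0 genes were called (3.23% and 3.04%).

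Sp5 is a Wnt target as well as a targeted gene here, so its count in a cell was set against each of the 10 genes. The stretch of 250 bases before the RefSeq start site is shown for Sp5 and for Axin2, Nkd1 and Dkk1. The latter are a scaffold, an intracellular inhibitor and a secreted inhibitor. In the counts that follow they were called higher beside Sp5 only in the library labelled double mutant. Capitals mark the letters searched on both strands: CTTTGAT and CTTTGAA, TCF/LEF sites, and GGGCGG, the GC box that Sp factors bind. All are from RefSeq on GRCm38.p6, written 5′ to 3′ on the gene's own strand.

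Sp5, chr2:70474673-70474922, plus strand: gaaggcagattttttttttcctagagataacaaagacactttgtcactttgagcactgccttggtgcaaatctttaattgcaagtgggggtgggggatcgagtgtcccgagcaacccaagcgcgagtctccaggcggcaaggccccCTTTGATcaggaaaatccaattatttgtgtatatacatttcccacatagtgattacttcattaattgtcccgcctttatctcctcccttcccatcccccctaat
Axin2, chr11:108920099-108920348, plus strand: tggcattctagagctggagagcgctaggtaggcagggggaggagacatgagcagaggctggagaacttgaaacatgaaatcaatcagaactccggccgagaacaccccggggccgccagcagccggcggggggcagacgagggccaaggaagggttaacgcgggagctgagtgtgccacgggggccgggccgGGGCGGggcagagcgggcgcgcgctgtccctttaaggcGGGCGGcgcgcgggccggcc
Nkd1, chr8:88527383-88527632, plus strand: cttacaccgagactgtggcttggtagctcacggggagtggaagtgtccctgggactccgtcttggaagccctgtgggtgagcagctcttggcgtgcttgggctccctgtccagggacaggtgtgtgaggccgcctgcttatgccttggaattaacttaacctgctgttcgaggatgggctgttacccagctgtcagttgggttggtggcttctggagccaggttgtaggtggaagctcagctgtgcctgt
Dkk1, chr19:30549497-30549746, minus strand: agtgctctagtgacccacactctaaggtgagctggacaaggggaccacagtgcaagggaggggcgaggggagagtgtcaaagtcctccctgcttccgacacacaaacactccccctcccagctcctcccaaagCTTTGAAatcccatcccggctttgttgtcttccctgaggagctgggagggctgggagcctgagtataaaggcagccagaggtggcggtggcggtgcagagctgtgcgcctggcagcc

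Sp5 held CTTTGAT beginning 104 bases before its start and Dkk1 held CTTTGAA beginning 117 bases before its start. Axin2 held GC boxes beginning 58 and 20 bases before its start, and Nkd1 held none of the 3 words in this stretch. The Nkd1 start site of RefSeq lies inside the longer GENCODE gene, which begins at 88521354. Of 32851 RefSeq promoters cut to the same length, 3.21% held CTTTGAT, 4.46% CTTTGAA and 32.7% GGGCGG, so the GC box in particular is common. Promoters of 7 of the 10 genes were matched, and Notum, Znrf3 and Bambi were not. A match here describes letters and not binding.

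Axin2, Lef1, Nkd1, Dkk1 and Znrf3 were higher in cells with more Sp5 in the library labelled double mutant. Each cell was thinned to 5000 UMIs, which leaves 8296 and 9970 cells and takes out 411 and 617 shallower ones, and grouped by its remaining Sp5 UMIs. The bins were filled unequally: the library labelled wild type had 63.4% of its cells at 0 Sp5 UMIs and 1.18% (98 cells) at 4 or more, against 24.2% and 25.5% (2545 cells) in the library labelled double mutant.

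Across the bins of 0, 1, 2 to 3 and 4 or more Sp5 UMIs in the library labelled double mutant, Nkd1 was at 53.3, 57.4, 70.2 and 84.0 CPM, and its top bin stood 0.66 (0.51 to 0.80) above its lowest on the log2 scale. Axin2 was at 64.1, 68.0, 79.5 and 85.3 CPM (0.41, 0.28 to 0.55). Lef1 was at 60.2, 71.2, 73.0 and 83.7 CPM (0.47, 0.34 to 0.61). These 3 genes thus had their highest level in the bin with most Sp5. Dkk1 was at 5.39, 4.58, 8.71 and 10.7 CPM (0.99, 0.55 to 1.44), low in the lower bins and higher in the upper ones. Znrf3 was at 12.5, 14.6, 15.6 and 16.7 CPM (0.42, 0.11 to 0.73).

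Tcf7l1 went the other way, at 143.7, 139.0, 126.6 and 111.5 CPM (-0.37, -0.47 to -0.26). In all, 5 of 9 genes were called higher between the outer bins, where 3.54% of genes were, and 1 lower, where 5.66% were. Tcf7 was at 63.6 CPM with 0 and 61.1 CPM with 4 or more Sp5 UMIs, Bambi at 15.7 and 17.2 CPM (0.14, -0.15 to 0.42), and Notum at 5.22 and 6.21 CPM (0.25, -0.25 to 0.75). T and Eomes were also higher beside Sp5, by 0.78 and 0.61, so the Sp5 bins differ in streak genes too. The part of this in the bin values of the feedback genes was not tested.

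In the library labelled wild type the top bin held too few cells to place these genes. Axin2 was at 78.8, 83.7, 91.5 and 100 CPM (0.34, -0.10 to 0.75) and Lef1 at 67.9, 73.6, 82.3 and 85.7 CPM (0.34, -0.14 to 0.78). Nkd1 was at 59.5, 67.4, 71.4 and 63.3 CPM, and Dkk1 in the top bin rested on 3 UMIs. By the call rule 0 of 10 genes were higher (2.37% of genes) and 0 lower (1.91%), and Tcf7l1 was at 131.5, 110.6, 113.1 and 124.5 CPM.

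**Figure D2:**
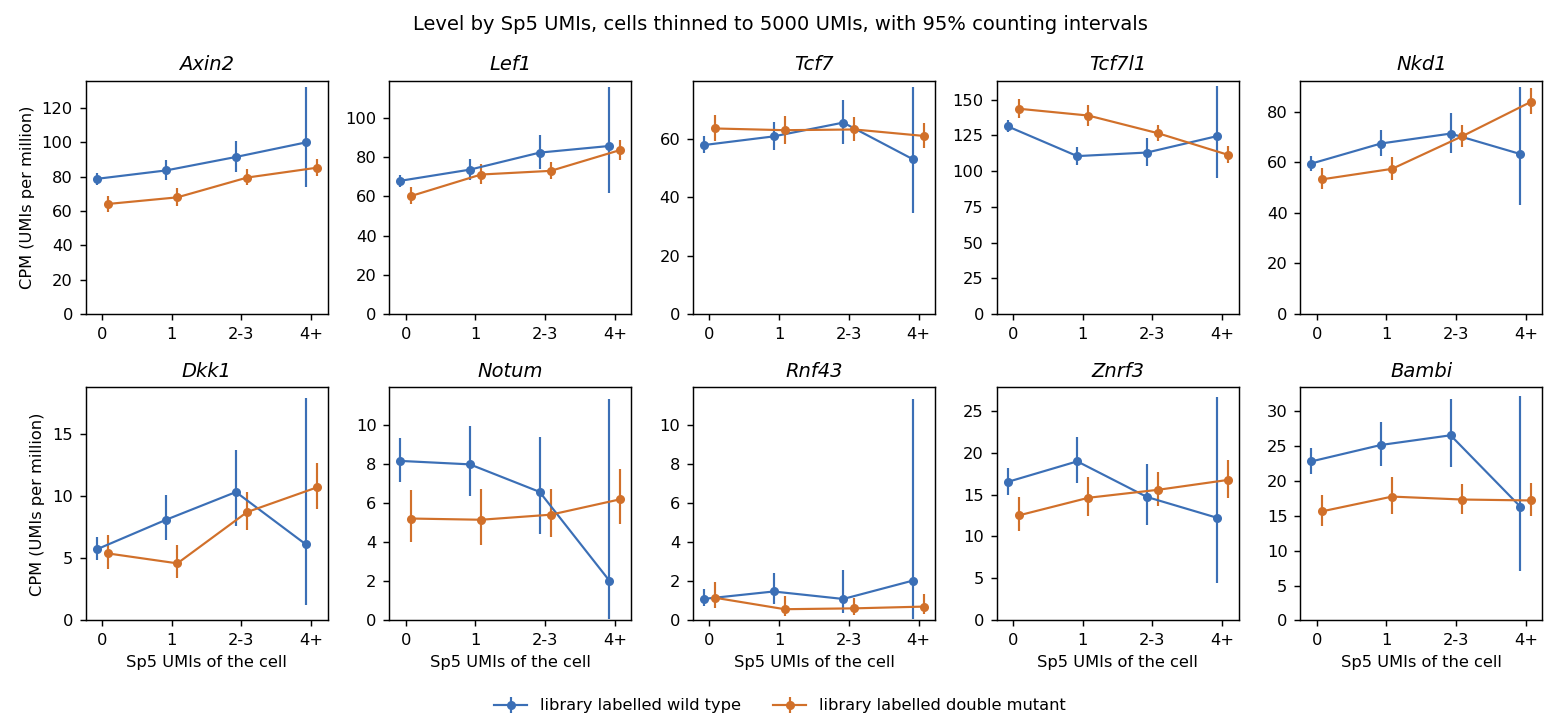
CPM of the 10 genes in cells grouped by Sp5 UMIs after thinning to 5000 UMIs, with exact Poisson 95% intervals as bars, 1 line per library. Axin2, Lef1, Nkd1, Dkk1 and Znrf3 have higher levels with 4 or more Sp5 UMIs than with 0 in the library labelled double mutant, and Tcf7l1 a lower one; the top bin of the library labelled wild type holds 98 cells and has wide intervals.

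Between cells with the same Sp5 count, Nkd1 changed its side with 0 and with 1 Sp5 UMIs. For Dkk1 the interval lay below 0 only with 1 Sp5 UMI. Over all cells Nkd1 was higher in the library labelled double mutant (0.13), whereas among cells with 0 Sp5 UMIs it was lower (-0.16, -0.29 to -0.03), as among cells with 1 (-0.23, -0.39 to -0.07). Axin2 kept its direction with a larger size, at -0.30 (-0.42 to -0.18) with 0, -0.30 (-0.45 to -0.15) with 1 and -0.20 (-0.37 to -0.04) with 2 to 3 Sp5 UMIs. Dkk1, at 0.24 over all cells, was at -0.08 (-0.53 to 0.35) with 0, -0.82 (-1.37 to -0.29) with 1 and -0.24 (-0.74 to 0.27) with 2 to 3. Znrf3 was at -0.40 (-0.68 to -0.13) with 0 and -0.38 (-0.69 to -0.06) with 1, further from 0 than over all cells, and at 0.08 (-0.32 to 0.50) with 2 to 3. Nkd1 stood at -0.02 with 2 to 3 and at 0.41 (-0.10 to 0.97) with 4 or more. Lef1, nearly level over all cells, was at -0.17 (-0.30 to -0.05) with 0. A bin holds unequal shares of the libraries, 63.4% against 24.2% at 0 Sp5 UMIs, so these values compare different parts of each.

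Cell by cell the relations were weak. After thinning, Pearson's r with Sp5 was 0.034 and 0.093 for Nkd1, 0.037 and 0.066 for Axin2, 0.039 and 0.066 for Lef1, 0.038 and 0.058 for Dkk1 and -0.051 and -0.069 for Tcf7l1, over 8296 and 9970 cells. Tcf7, Notum, Rnf43, Znrf3 and Bambi lay between -0.015 and 0.027 in both. Cells of a library share their preparation and most thinned counts of the 10 genes are 0 or 1. Values of this size in counts this sparse are not read as a finding by themselves. Among 7606 genes with a mean of at least 10 CPM, the median r with Sp5 was -0.001 and -0.0003. Axin2 lay above 99.1% and 99.4% of them, Lef1 above 99.4% and 99.4%, Nkd1 above 98.8% and 99.9% and Dkk1 above 99.3% and 99.1%. Tcf7l1 lay above 0.05% and 0.37%, and Tcf7, Notum, Rnf43, Znrf3 and Bambi above 14.1% to 94.7%. After thinning to 2500 UMIs, Axin2 in the library labelled wild type lay above 86.4%. For scale, r with Sp5 over all cells thinned to 5000 UMIs was 0.078 and 0.090 for T and 0.079 and 0.114 for Eomes. Among the 45 pairs of the 10 genes the median r was 0.002 and 0.005, and Lef1 with Nkd1 was highest at 0.044 and 0.046. The 5 genes closest to Axin2 over cells, by the mean r of both libraries, were Top2a (0.053), Sp5 (0.051), Hnrnpa3 (0.045), Fst (0.044) and Malat1 (0.039). Those closest to Lef1 were Malat1 (0.086), Fst (0.065), Sp5 (0.052), Nrp2 (0.051) and Prc1 (0.051).

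The 10 genes also differed with the cells' share of UMIs from whole chromosomes, and the libraries differed in how many such cells they held. Axin2 (11:108920349-108950783), Tcf7 (11:52252371-52283014), Notum (11:120653788-120661175), Rnf43 (11:87662722-87735539) and Znrf3 (11:5276324-5444847) lie on chromosome 11 and Tcf7l1 (6:72626378-72789254) on chromosome 6. Lef1 (3:131110471-131224356), Nkd1 (8:88521354-88594884), Dkk1 (19:30545863-30549665) and Bambi (18:3507923-3516404) lie elsewhere, all in GRCm38. A cell was counted as low where the chromosome's share, with the 10 genes left out, was at most 0.8 times the median. The library labelled wild type held 1507 cells of 8449 that were low on chromosome 11 (17.8%, 17.0 to 18.7), and the library labelled double mutant 599 of 10229 (5.86%, 5.41 to 6.33). Low on chromosome 6 were 1787 (21.2%, 20.3 to 22.0) and 1867 (18.3%, 17.5 to 19.0). Low on both chromosomes were 1182 and 250 cells. In the library labelled wild type the splits by chromosome 11 and by chromosome 6 thus share most of their low cells and are not separate observations. Chromosome 11 genes in low against other cells had median log2 ratios of -0.51 and -0.54.

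Lef1, Dkk1 and Bambi were higher in the cells low on chromosome 11, in both libraries, although they lie on other chromosomes. Lef1 was at 98.1 CPM in low and 67.0 CPM in other cells of the library labelled wild type (0.55, 0.47 to 0.63), and at 98.9 and 72.4 CPM in those of the library labelled double mutant (0.45, 0.31 to 0.59). Dkk1 was at 10.2 and 6.21 CPM (0.72, 0.45 to 0.99) and at 14.5 and 7.71 CPM (0.91, 0.53 to 1.27). Bambi was at 30.5 and 20.9 CPM (0.55, 0.39 to 0.70) and at 22.3 and 16.5 CPM (0.43, 0.14 to 0.72). Nkd1 stood at 0.43 and 0.14. Of the 5 genes that lie off chromosome 11, 4 and 3 were called higher, where 15.8% and 11.9% of genes were. Called lower were 1 and 0, where 12.2% and 6.8% were. The 1 was Tcf7l1, which lies on chromosome 6, and most of these low cells of the library labelled wild type were low on that chromosome too.

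The chromosome 11 genes followed their chromosome unequally. Axin2 was at 69.2 and 86.5 CPM (-0.32, -0.42 to -0.23) in low and other cells of the library labelled wild type and at 60.7 and 77.4 CPM (-0.35, -0.53 to -0.18) in those of the library labelled double mutant. Tcf7 was at 46.3 and 64.1 CPM (-0.47) and at 39.5 and 64.3 CPM (-0.70). Znrf3 at -0.16 (-0.36 to 0.04) and -0.06, and Notum at 0.13 and -0.52, had intervals that span 0. On the split by chromosome 6, Tcf7l1 stood at -0.48 and -0.63, beside medians of -0.49 and -0.54 for chromosome 6 genes. Of the 9 other genes, 5 were called higher in the library labelled wild type (Lef1, Nkd1, Dkk1, Notum and Bambi, where 10.1% of genes were) and 2 in the library labelled double mutant (Nkd1 and Dkk1, 6.39%), with 0 lower in either (11.4% and 7.63%).

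**Figure D3:**
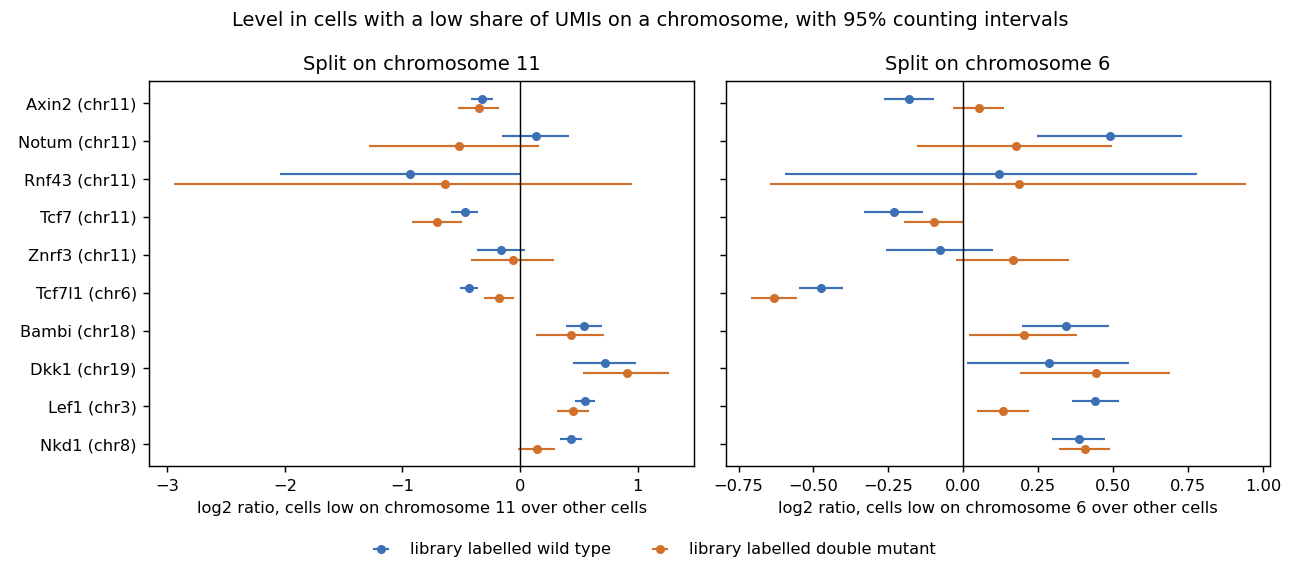
Log2 ratio of each gene in cells low on chromosome 11 (left) or chromosome 6 (right) over the other cells, per library, with 95% counting intervals as bars. Lef1, Dkk1 and Bambi lie above 0 in both libraries on the left, and Axin2 and Tcf7 below 0.

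Without the cells low on either chromosome, 6337 and 8013 cells with at least 4000 UMIs, Bambi stayed lower in the library labelled double mutant, at -0.36 (-0.47 to -0.25) over all and -0.68 (-0.88 to -0.48) in T-positive cells. Notum stayed lower at -0.44 (-0.63 to -0.25) over all and -0.45 (-0.79 to -0.12) in T-positive cells, but its call in cells with none of the 3 class genes was lost (-0.32, -0.70 to 0.04). Lef1 moved to 0.11 (0.05 to 0.16) over all cells. Low cells on chromosome 11 were also spread unequally over the classes, at 25.3% and 8.32% of T-positive and 9.06% and 1.98% of Irx3-positive cells.

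Among other genes of the pathway, taken from lists of names, each count is to be read against the 5.02% of all tested genes called higher and the 7.86% called lower. Of 14 signal transduction genes tested, 0 were called higher and 1 lower, Lrp5, a co-receptor named after its value was seen, at 6.15 and 4.27 CPM (-0.53, -0.71 to -0.34), with a median of -0.04. Ctnnb1, which encodes β-catenin, was at 254.8 and 223.2 CPM (-0.19, -0.22 to -0.16). Btrc went the other way at 22.1 and 25.2 CPM (0.19, 0.11 to 0.27), and Lrp6 was at 40.1 and 35.6 CPM (-0.17, -0.24 to -0.11). Of 12 nuclear effectors 0 were called higher and 2 lower, Pygo1 (-0.31, -0.60 to -0.01) and Hbp1 (-0.31, -0.40 to -0.22), with a median of -0.07. Under the size of a call were Tcf7l2 (-0.24, -0.33 to -0.16) and, in the other direction, Tle4 (0.22, 0.17 to 0.27). Of 9 surface modulators and secreted antagonists tested among 18 listed, 0 were called higher and 2 lower, Sfrp1, a secreted Wnt-binding protein, at 36.1 and 27.8 CPM (-0.38, -0.45 to -0.31), and Frzb (-0.43, -0.66 to -0.21), with a median of -0.11.

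Of 8 other Wnt targets tested among 12 listed, 3 were called higher and 1 lower, with a median of -0.01. Fgf8, a streak growth factor, was at 92.6 and 153.3 CPM (0.73, 0.69 to 0.76), Mixl1, a streak homeobox gene, at 12.1 and 16.8 CPM (0.47, 0.36 to 0.58), and Wnt3, the ligand that starts the streak, at 44.7 and 56.5 CPM (0.34, 0.28 to 0.40). Evx1, another streak homeobox gene, also named after its value was seen, was at 11.3 and 9.69 CPM (-0.22, -0.35 to -0.09), under the size of a call. Cdx2, a caudal homeobox gene named after its value was seen, was at 9.47 and 6.21 CPM (-0.61, -0.76 to -0.46). T and Eomes themselves were at 38.8 and 50.7 CPM (0.39, 0.33 to 0.45) and at 91.2 and 185.6 CPM (1.03, 0.99 to 1.06), and the part of these streak genes' levels in the values of the 10 genes was not tested.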

How the data were processed

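Each genotype gave 1 10x Genomics 3′ single-cell library. The values are raw UMI counts that the authors deposited without normalization, listing all 6794880 possible barcodes. STARsolo, STAR 2.7.9a, Seurat 5.1.0 and mm10 are named in the submitters' processing notes, whereas Cell Ranger 8.0.1 is named per the labels' protocols, which also give medians of 5333 and 5398 genes per cell. The deposited counts gave 3275 and 2884 genes per kept cell, and the reason was not tested. How strand was treated is not given in the sources used here: Axin2, Lef1, Tcf7, Tcf7l1, Notum, Rnf43, Eomes and Irx3 overlap genes on the other strand, and their reads may not be told apart.

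Of 8772 and 10613 barcodes with at least 2500 UMIs, 1 and 0 had fewer than 1000 genes and 64 and 26 more than 10% mitochondrial UMIs. Of the kept barcodes, 27 occur in both libraries. Doublets were not removed, except in an alternative that took out 606 and 897 cells by a Scrublet-type score. UMIs were summed per library and class and divided by that class's total (CPM). Intervals are at 95%: exact Poisson for levels, exact binomial (Clopper-Pearson) for shares, and for ratios the exact interval conditional on the summed UMIs of both libraries. Chromosome shares used cells with at least 4000 UMIs. Correlations used log2(UMIs + 1). Scripts were tested on simulated data, in Python 3.11.15 with numpy 2.4.6, scipy 1.17.1, pandas 2.3.3 and scikit-learn 1.9.0. Gene positions are from GENCODE on GRCm38, the same build as mm10.

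Named are the 10 genes, Sp5, Sp8, T, Eomes and Irx3, the 5 genes nearest in correlation to Axin2 and to Lef1 (mean of at least 10 CPM), and, of each pathway list, up to the 3 largest ratios at that level. Others are named where a count of 5 or fewer calls them, or beside such a count, after their values were seen. The genes, classes and lists were chosen with earlier results of these data known. Alternatives changed the filters, scaling, pseudocount, class rule, call size, thinning, doublets and low-chromosome cells.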

Additional observations from a re-analysis of the deposited data

How the results depend on the processing

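No paired analysis was possible because each genotype has 1 library. Of 440 recomputed log2 ratios, 421 lay inside the counting interval of the reported value, and none of the called ones changed sign. Bambi stayed between -0.43 and -0.36 over all cells, -0.998 and -0.64 in T-positive and -0.46 and -0.29 in Eomes-positive cells, and Notum between -0.57 and -0.44 over all and -0.67 and -0.45 in T-positive cells. The Irx3-positive calls were least stable, where Dkk1 ranged from 0.28 to 0.91: the number of genes called higher there was 2 (Lef1 and Dkk1) at a mitochondrial share of at most 5% and also 2 without cells low on chromosome 11 or 6, but 0 with likely doublets removed, 0 with 2 or more Irx3 UMIs and 0 in cells positive for only 1 of the class genes, and after thinning to 2500 UMIs 1 (Notum) was called lower and Lef1 in place of Dkk1 higher. Median ratio scaling brought Dkk1 over the limit in all cells, 1 called higher. In cells with none of the class genes, 1 (Dkk1) was called higher without low-chromosome cells. A call size of 0.5 left 1 gene lower over all cells and 1 in Eomes-positive cells (Notum in both), and 0 higher and 0 lower in cells with none. The share of all genes called under these alternatives is not given, and the shares above hold for the main setting only. The counts here therefore show how calls of single genes moved and say nothing of the 10 genes as a set. The median r with Sp5 over the 10 genes was 0.074 in 642 thinned Irx3-positive cells of the library labelled double mutant, against 0.019 over its 9970 thinned cells. Single genes ranged there from -0.072 (Tcf7l1) to 0.118 (Lef1). In 1326 such cells of the other library they ranged from -0.047 (Tcf7l1) to 0.063 (Dkk1). With so few cells, the median of 0.074 is not read as a finding. The cause of these shifts was not tested. Leaving out barcodes found in both libraries, and the correlations in Eomes- and Irx3-positive cells, were added after seeing the data. Depth limits Rnf43 in every class, and Notum and Dkk1 in Irx3-positive cells.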

Other observations

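Dkk4, a secreted Wnt antagonist, was under the level at which genes were compared and was chosen after its value was seen. It stood at 0.525 CPM in the library labelled wild type and 1.10 CPM in the library labelled double mutant, a log2 ratio of 1.06 (0.57 to 1.57), on 1 library per genotype. In barcodes of 10 to 100 UMIs, which belong to no cell class, Bambi was at 24.5 and 17.7 CPM, Notum at 8.84 and 5.51 CPM and Sp5 at 85.4 and 442.2 CPM. The intervals were wide, 19.9 to 29.9 and 12.9 to 23.7 CPM for Bambi and 6.16 to 12.3 and 3.01 to 9.24 CPM for Notum. Kept cells lay inside them for Bambi (22.3 and 16.7 CPM) and Notum (7.77 and 5.29 CPM), and the part of free UMIs in those values was not tested. Tcf7 (36.6 and 30.7 CPM), Znrf3 (12.6 and 16.9 CPM) and Rnf43 (3 UMIs each) had the opposite order to kept cells. For these genes the intervals of the libraries overlapped, so their order is not placed. These barcodes come from the same libraries, so a shared order is no separate support.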
